A study of Mus musculus with 8 samples.

Results

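Disease-associated microglia are a state of the resident macrophages of the brain that was described around amyloid plaques and in other degenerating or demyelinating tissue. In that state genes of resting microglia recede and a set of genes for lipid uptake, lysosomes, phagocytosis and secreted factors is switched on, in large part through the receptor TREM2. TREM2 binds lipids, lipoproteins and cell debris, has no signalling tail of its own, and passes its signal through the adaptor TYROBP (DAP12), whose phosphorylated tyrosines recruit the kinase SYK. The 10 genes followed here were chosen by name from that program, namely the receptor and adaptor *Trem2* and *Tyrobp*, the secreted factors *Spp1* and *Igf1*, the glycoprotein *Gpnmb*, the galectin *Lgals3*, the tetraspanins *Cd9* and *Cd63*, the lysozyme *Lyz2* and the pyrophosphate transporter *Ank*. A probe set that the platform's annotation pairs with that gene alone was found for 8 of the 10, among 18194 genes in all. *Spp1* and *Cd63* have no such probe set in the annotation used and are not analysed here.

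The tissue was the hypothalamus of mice aged 10 weeks, 4 wild type and 4 *Nestin-Pex5*-/-, with 1 Affymetrix expression array per mouse. In *Nestin-Pex5*-/- mice a Cre recombinase driven by the *Nestin* promoter removes the floxed gene of the peroxisomal import receptor PEX5 in neural progenitors, so that neurons, astrocytes and oligodendrocytes arise without functional peroxisomes. Microglia arise outside that lineage. The mice were bred into a Swiss Webster background, no treatment was given, and the labels call the controls wild type without saying whether they carried the floxed allele or the Cre. The question put here is which genes of the TREM2 program differ between the genotypes, and whether they do so by more than other genes of microglia.

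Values are log2 intensities made by the authors with RMA, and a fold is the *Nestin-Pex5*-/- level divided by the wild type level. The brightest probe set on average stands for a gene. limma gave the tests, with Benjamini-Hochberg adjustment across the whole gene table, and a gene is said to have risen or fallen at an adjusted p under 0.05. Of all genes, 3.98% rose (724) and 0.791% fell (144), and the median log2 fold change was -0.033. Scaled to *Actb*, which moved that median to -0.161, 540 rose and 1088 fell. Without overlap, all *Nestin-Pex5*-/- values exceeded all wild type values in 6.63% of genes and were lower in 4.51%. *Pex5* itself was at 8.66 in wild type and 8.67 in *Nestin-Pex5*-/- arrays, and it is not known whether its probe set lies in the deleted part. The hypothalamic peptide genes *Pmch* and *Avp* were at 12.64 and 11.52 in wild type. The 17 measured identity genes of microglia, which macrophages share, all rose. In tissue RNA, more microglia and more RNA of a gene per cell cannot be told apart.

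Of the 8 measured genes 6 rose and none fell, with none falling at an unadjusted p under 0.05 either. The 6 are *Tyrobp*, *Lyz2*, *Trem2*, *Gpnmb*, *Cd9* and *Lgals3*, and in each of them no array of one genotype fell among those of the other. The median log2 fold change of the 8 genes was 1.81. A rise of at least 4-fold was seen in 4 of them, against 0.335% of all genes. The genes were chosen with earlier results of these data known, so this contrast is a description and not a test. *Igf1* and *Ank* did not pass the test.

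**Figure D1:**
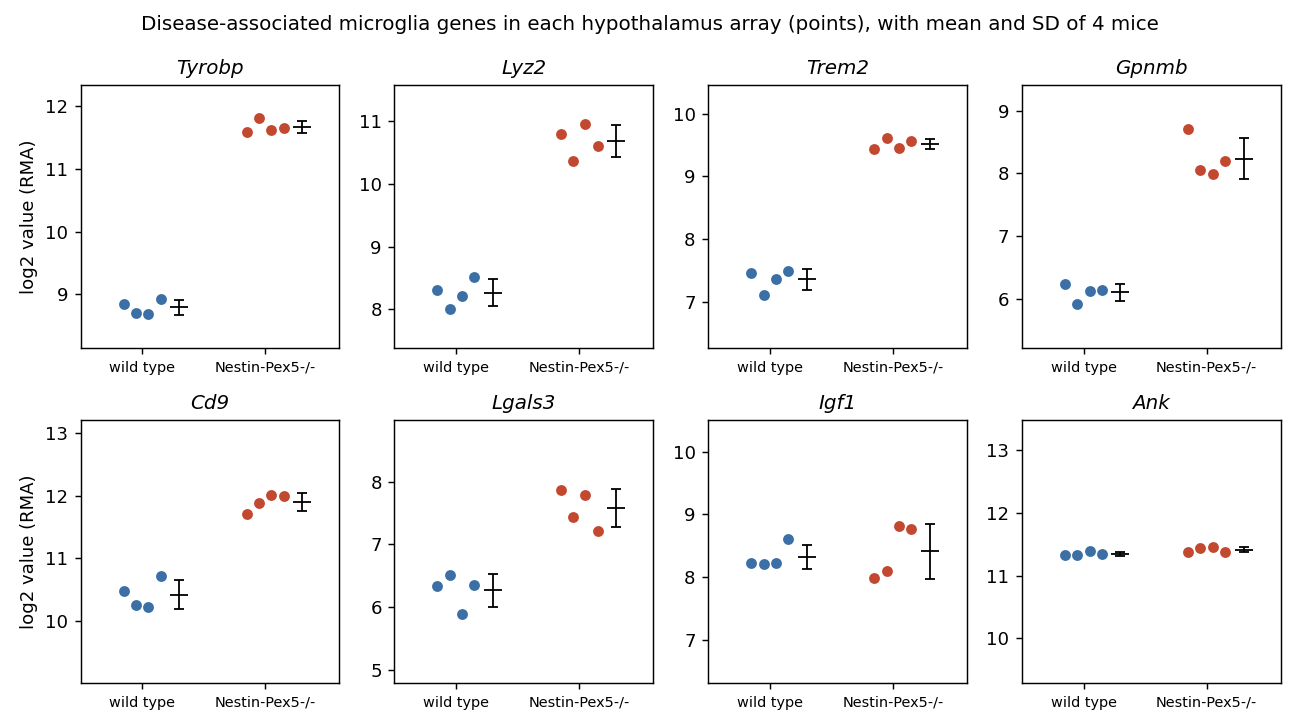
Log2 value of each measured gene in each hypothalamus array. Points are mice, and the bars beside them give the mean and SD of each genotype. Every panel spans the same number of log2 units. In the 6 genes from *Tyrobp* to *Lgals3* the genotypes do not overlap, whereas the arrays of *Igf1* and *Ank* do.

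The sequence just before the start of the gene is shown for the 5 genes that rose and have an entry among RefSeq's mouse promoters (GRCm38.p6), since these genes moved together. *Tyrobp* has no entry there. Each line gives the 60 bases that end just before the annotated start, on the gene's own strand from 5′ to 3′, and capitals mark a motif found by the search described next.
Trem2, chr17:48346341-48346400, plus strand: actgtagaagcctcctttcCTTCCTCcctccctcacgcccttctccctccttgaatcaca
Gpnmb, chr6:49036458-49036517, plus strand: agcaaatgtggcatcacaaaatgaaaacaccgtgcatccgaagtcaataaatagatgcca
Lgals3, chr14:47373800-47373859, plus strand: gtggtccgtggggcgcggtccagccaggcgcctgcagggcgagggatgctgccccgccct
Cd9, chr6:125494761-125494820, minus strand: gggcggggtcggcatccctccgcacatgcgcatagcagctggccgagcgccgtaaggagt
Lyz2, chr10:117282273-117282332, minus strand: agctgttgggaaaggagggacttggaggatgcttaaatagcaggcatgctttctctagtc

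Promoters, from 250 bases before to 50 after the start, were searched on both strands for GAGGAAG, a form of the site of PU.1, the transcription factor that specifies the myeloid lineage. The same was done for TGACTCA, the site of AP-1, and for CACGTG, the E-box bound by the lysosomal regulators TFEB and MITF. GAGGAAG was present in 4 of the 9 genes of the program with an entry, against 15.4% of all genes with one. The 4 were *Trem2*, which rose, *Igf1*, which did not pass, and *Spp1* and *Cd63*, which were not measured. In *Trem2* the match lies on the opposite strand, 41 bases before the start, within a run of pyrimidines. TGACTCA was found in *Gpnmb* alone, just after the start, against 5.95% of all genes, and CACGTG in none of the 9, against 8.09%. These matches describe letters in a window and say nothing about binding.

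*Tyrobp* rose most of the 8. It encodes the adaptor through which TREM2 and several other myeloid receptors signal. It was at log2 values of 8.85, 8.70, 8.68 and 8.93 in wild type replicates 1 to 4, and 11.58, 11.81, 11.62 and 11.66 in *Nestin-Pex5*-/- replicates 7 to 10. The genotypes were 2.65 log2 units apart at their nearest arrays, which is far more than the range of 0.25 within wild type or 0.23 within *Nestin-Pex5*-/- arrays. The means were 8.79 ± 0.12 and 11.67 ± 0.10 (SD, n = 4 each), a rise of 7.35-fold (95% confidence interval 6.52 to 8.29; log2 fold change 2.88 with a standard error of 0.077, adjusted p = 8.6e-08 from limma). In order of fold change it ranked 17 of all genes.

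*Trem2*, on chromosome 17 of GRCm38 from 48346401 to 48352276, rose 4.48-fold. The log2 values were 7.46, 7.11, 7.36 and 7.49 in wild type and 9.44, 9.61, 9.45 and 9.57 in *Nestin-Pex5*-/- arrays. The *Nestin-Pex5*-/- arrays lay within 0.16 of each other, the narrowest range among the 6 genes that rose. The means were 7.36 ± 0.17 and 9.52 ± 0.084 (SD, n = 4 each; 2.16 on the log2 scale with a standard error of 0.089; limma, adjusted p = 7.1e-07). These values come from a probe set of the _s_at type, which can also bind related transcripts. The other probe set of *Trem2* was at 4.67 ± 0.18 in wild type and 4.59 ± 0.061 in *Nestin-Pex5*-/- arrays (SD, n = 4 each), a fold of 0.944 that did not pass (adjusted p = 0.742 in the fit of every probe set by limma, in which 2.32% rose and 0.268% fell). The rise of *Trem2* therefore rests on 1 probe set.

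The adaptor and the receptor did not rise by the same factor on these probe sets. *Tyrobp* minus *Trem2* was 1.39, 1.58, 1.32 and 1.44 in the wild type arrays and 2.14, 2.20, 2.16 and 2.09 in the *Nestin-Pex5*-/- arrays. The difference grew by 0.71 on the log2 scale without overlap (p = 0.029 by a two-sided exact permutation test, which can go no lower with 4 mice against 4). How steeply each probe set responds was not measured.

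*Lyz2* encodes the lysozyme of macrophages, an enzyme that cleaves bacterial cell walls and marks the myeloid lineage. On the log2 scale it was at 8.31, 7.998, 8.21 and 8.52 in wild type and 10.80, 10.37, 10.96 and 10.61 in *Nestin-Pex5*-/- arrays. The means of 8.26 ± 0.22 and 10.69 ± 0.25 (SD, n = 4 each) differed 5.37-fold (2.43 on the log2 scale with a standard error of 0.14; limma, adjusted p = 5.8e-06). *Lyz2* and *Lyz1*, which lie near each other on chromosome 10, are close copies, so their signals may be shared. The _x_at probe sets annotated to *Lyz1* rose by 6.27-fold and by 5.84-fold (limma on every probe set, adjusted p = 1.8e-05 and 2.4e-05). The remaining *Lyz1* probe set was at 4.33 and 4.48, and its fold of 1.11 did not pass (adjusted p = 0.276). In all 3 of the probe sets that rose, the lowest *Nestin-Pex5*-/- array was replicate 8 and the highest replicate 9.

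Blood-borne myeloid cells also carry lysozyme. None of 11 measured genes of monocytes and neutrophils passed the test with limma (before adjustment none higher and 2 lower at p under 0.05), and the mean of these genes was 4.99 to 5.33 in wild type and 4.98 to 5.06 in *Nestin-Pex5*-/- arrays. *Ccr2*, the chemokine receptor of inflammatory monocytes, was at 0.881-fold (adjusted p = 0.267), and the neutrophil granule protein *Ltf* at 0.874-fold (adjusted p = 0.424). Among genes of macrophages at the borders of the brain, 1 of 10 rose, *Ms4a7* at 3.10-fold (adjusted p = 0.0091). The other 9, with *Mrc1*, *Lyve1* and *Cd163* among them, did not pass. Several monocyte and neutrophil genes were dim in both genotypes, such as *Chil3* at 4.08 and 4.05 and *Cd177* at 3.79 and 3.71, so a change in them may not be detectable. The part of such cells in the rise of *Lyz2* was not tested.

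*Gpnmb* encodes a transmembrane glycoprotein of lysosome-rich phagocytes that is also made by melanocytes. Log2 values were 6.23, 5.91, 6.12 and 6.14 in wild type and 8.70, 8.05, 7.98 and 8.19 in *Nestin-Pex5*-/- arrays. *Nestin-Pex5*-/- replicate 7 stood above the other 3. The means were 6.10 ± 0.13 and 8.23 ± 0.33 (SD, n = 4 each), a rise of 4.38-fold (2.13 on the log2 scale with a standard error of 0.15; limma, adjusted p = 2.0e-05). Without replicate 7 the log2 fold change was still 1.97. The dimmer probe set of *Gpnmb* was at 3.88 and 4.14, 1.20-fold, and did not pass (limma on every probe set, adjusted p = 0.218), although its arrays did not overlap.

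*Cd9* encodes a tetraspanin, a membrane protein that organises integrins and immunoglobulin-like receptors, and is made by oligodendrocytes and other cells besides microglia. Its log2 values were 10.48, 10.25, 10.22 and 10.72 in wild type and 11.71, 11.88, 12.01 and 11.99 in *Nestin-Pex5*-/- arrays. The means of 10.42 ± 0.23 and 11.90 ± 0.14 (SD, n = 4 each) differed 2.79-fold (1.48 on the log2 scale with a standard error of 0.12; limma, adjusted p = 4.7e-05). None of 11 genes of myelin and mature oligodendrocytes passed (8 were higher at an unadjusted p under 0.05), and their median log2 fold change was 0.40. Their mean was 10.998 to 11.76 in wild type and 11.48 to 11.95 in *Nestin-Pex5*-/- arrays. In wild type it was highest in replicate 4 as for *Cd9*, but so were the means of the microglia identity and meningeal fibroblast genes. Among the *Nestin-Pex5*-/- arrays both the oligodendrocyte mean and *Cd9* were lowest in replicate 7, then 8, 10 and 9. The microglia identity genes had another order there. The meningeal mean had the order of *Cd9* in both genotypes, the oligodendrocyte mean in the *Nestin-Pex5*-/- arrays only. The part of oligodendrocytes or other cells in the rise of *Cd9* was not tested. Of 9 other tetraspanins 3 rose, namely the leukocyte genes *Cd53* (4.00-fold), which is also one of the identity genes, and *Cd37* (2.68-fold) and *Tspan4* (1.29-fold, adjusted p = 0.0369).

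*Lgals3* encodes galectin 3, a lectin that binds galactosides on glycoproteins and gathers at damaged lysosomes. Its log2 values were 6.33, 6.51, 5.90 and 6.36 in wild type and 7.87, 7.44, 7.79 and 7.21 in *Nestin-Pex5*-/- arrays. The ranges within the genotypes, 0.61 and 0.66, were close to the gap of 0.70 between them. It rose 2.48-fold (95% confidence interval 1.91 to 3.21; 1.31 on the log2 scale with a standard error of 0.17; limma, adjusted p = 0.0014), the smallest rise among the 6 genes. Of 14 genes for other galectins and for receptors and partners of galectin 3 or osteopontin, the product of *Spp1*, 6 rose. These include the hyaluronan and osteopontin receptor *Cd44* (3.09-fold), the galectin 3 binding protein *Lgals3bp* (2.79-fold), the galectin *Lgals9* (2.66-fold) and the integrin chain *Itgb5* (2.48-fold). The integrin chain *Itgb3* and the galectin 3 receptor *Mertk* did not pass (adjusted p = 0.572 and 0.528).

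**Figure D2:**
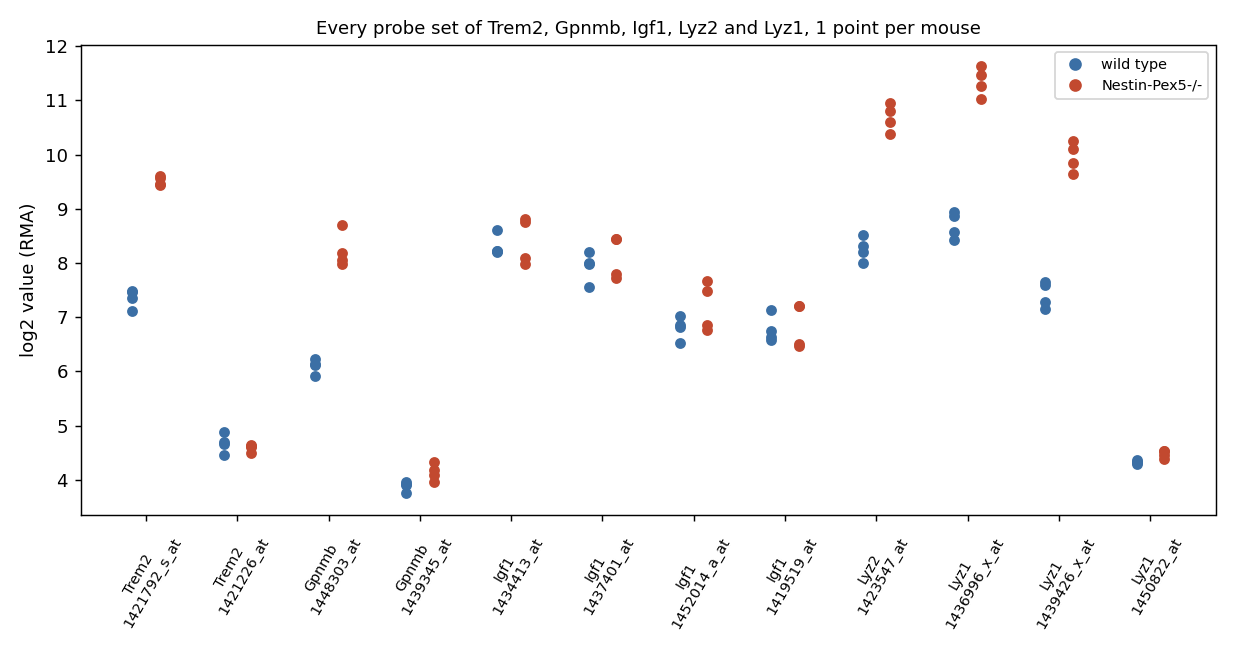
Log2 value on every probe set annotated to *Trem2*, *Gpnmb*, *Igf1*, *Lyz2* or *Lyz1* alone, 1 point per mouse, wild type to the left and *Nestin-Pex5*-/- to the right of each position. The dimmer probe set of *Trem2* stays near 4.6 in both genotypes, and all 4 probe sets of *Igf1* overlap.

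*Igf1* encodes insulin-like growth factor 1, which microglia of the disease-associated state and of early development secrete, and which neurons and cells of the meninges also make. Its log2 values were 8.23, 8.20, 8.23 and 8.61 in wild type and 7.98, 8.09, 8.81 and 8.76 in *Nestin-Pex5*-/- arrays. *Nestin-Pex5*-/- replicates 7 and 8 thus lay below all wild type arrays and replicates 9 and 10 above all of them. The fold was 1.07 with a 95% confidence interval from 0.786 to 1.45 (0.092 on the log2 scale with a standard error of 0.20; limma, adjusted p = 0.853). The other 3 probe sets gave folds of 1.12, 1.30 and 1.05, did not pass, and showed replicates 7 and 8 below replicates 9 and 10 as well.

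Several lists of genes of other cells had the order of the brightest *Igf1* probe set among the *Nestin-Pex5*-/- arrays. Replicate 7 was lowest, then 8, 10 and 9. These were the genes of meningeal fibroblasts, mature oligodendrocytes, oligodendrocyte precursors and border macrophages, while the microglia identity genes had another order. In the wild type arrays the oligodendrocyte genes also shared the order of that probe set and the meningeal genes did not. There replicates 1 and 3 were nearly equal on it, at 8.228 and 8.227. Some other *Igf1* probe sets had replicate 1 below replicate 3, in the wild type order of the precursor and border macrophage genes. Another had *Nestin-Pex5*-/- replicate 10 above 9. The mean of 11 meningeal genes was 8.42, 8.34, 8.14 and 8.73 in wild type and 7.21, 7.48, 8.61 and 8.57 in *Nestin-Pex5*-/- arrays, while that of 17 microglia identity genes was 9.90, 10.21, 10.01 and 10.05 in the latter. None of the meningeal genes passed the test (1 was lower at an unadjusted p under 0.05). The mean of 11 oligodendrocyte genes was 11.24, 10.998, 11.14 and 11.76 in wild type and 11.48, 11.71, 11.95 and 11.88 in *Nestin-Pex5*-/- arrays. The mean of 11 hypothalamic neuron genes ran the other way, at 10.35, 10.01, 9.79 and 9.75 in *Nestin-Pex5*-/- arrays. Component 3 of a principal component analysis, with 12.8% of the variance, placed the *Nestin-Pex5*-/- arrays at 14.55, 10.64, -12.11 and -12.02. A split among these arrays was thus not limited to *Igf1* and the lists with its order, and its cause was not tested. The part of any of these cells in the level of *Igf1* was not tested either. Against wild type, replicates 7 and 8 alone gave a log2 fold change of -0.28 for *Igf1* and replicates 9 and 10 alone 0.47. Of 13 receptors, binding proteins and signalling partners of IGF1 none passed (1 was higher at an unadjusted p under 0.05), with the binding protein *Igfbp5* at 1.52-fold (adjusted p = 0.115) and the adaptor *Irs1* at 1.04-fold.

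**Figure D3:**
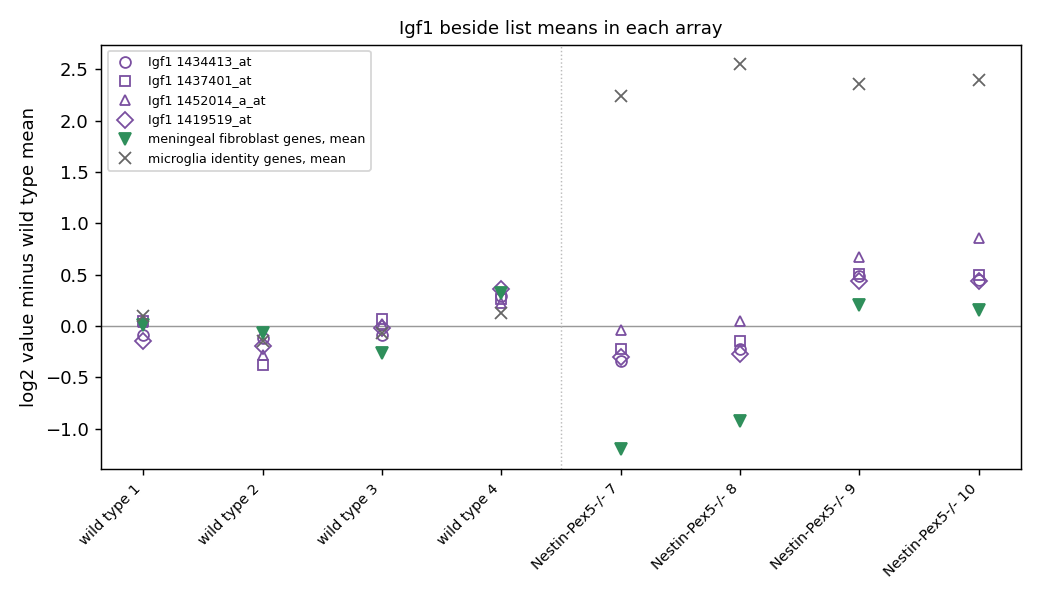
Log2 value minus the wild type mean in each of the 8 arrays for the 4 probe sets of *Igf1* and for the mean of the meningeal fibroblast genes and of the microglia identity genes. *Igf1* and the meningeal mean are lower in *Nestin-Pex5*-/- replicates 7 and 8 than in 9 and 10, while the microglia mean is raised in all 4.

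*Ank* encodes a transmembrane protein that exports pyrophosphate and ATP and is also expressed by neurons. Its log2 values lay between 11.33 and 11.39 in wild type and between 11.37 and 11.46 in *Nestin-Pex5*-/- arrays. The fold was 1.05 with a 95% confidence interval from 0.967 to 1.13 (0.064 on the log2 scale with a standard error of 0.050; limma, adjusted p = 0.569). A change of the size seen in the 6 genes that rose is outside this interval for the tissue as a whole. The level of *Ank* in microglia alone was not measured.

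Of 23 genes of the TREM family and of signalling from TREM2, 7 rose and none fell (before adjustment 13 higher and none lower at p under 0.05). The most were *Ms4a6d* (5.01-fold), of a membrane protein family linked to TREM2, and *Pik3ap1* (4.55-fold), an adaptor of phosphoinositide 3-kinase. *Sla*, an adaptor that restrains immune receptors, rose 2.42-fold, and *Inpp5d*, the phosphatase SHIP1 that opposes TYROBP signalling, 2.33-fold. The other 3 that rose were the kinase subunit *Pik3cg*, the phospholipase *Plcg2*, which acts downstream of TREM2, and the sheddase *Adam17*, which can release its ectodomain. *Syk*, the kinase that binds TYROBP, was at 1.20-fold (adjusted p = 0.0975). None of the other TREM genes measured, *Trem1*, *Trem3*, *Treml1*, *Treml2* and *Treml4*, passed (adjusted p = 0.247 to 0.866). The alternative adaptor *Hcst* (DAP10) did not pass either (adjusted p = 0.343).

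Of 13 genes for TREM2 ligands and for the handling of engulfed lipid, 6 rose and none fell (before adjustment 7 higher and none lower at p under 0.05). They include *Ch25h*, which makes 25-hydroxycholesterol (6.84-fold), the lysosomal cholesterol carrier *Npc2* (1.69-fold), the cholesterol exporter *Abca1* (1.53-fold) and *Apoe* (1.38-fold, adjusted p = 0.0033), the main apolipoprotein of the brain and a ligand of TREM2. *Lpl*, a lipase of the disease-associated state, was at 1.70-fold without passing (adjusted p = 0.410).

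Of 24 further genes of the disease-associated state, 16 rose and none fell (before adjustment 19 higher and none lower at p under 0.05), with a median log2 fold change of 0.87. The surface glycoprotein *Cd52*, the lectin receptor *Clec7a*, the protease inhibitor *Cst7* and the chemokine *Ccl6* rose most, 17.3-fold, 15.4-fold, 13.5-fold and 11.9-fold. All 4 exceeded *Tyrobp*. The 8 that did not pass were *Mitf*, *Bhlhe40*, *Hif1a*, *Fth1*, *Cadm1*, *Dkk2*, *Timp2* and *Rxrg*.

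**Figure D4:**
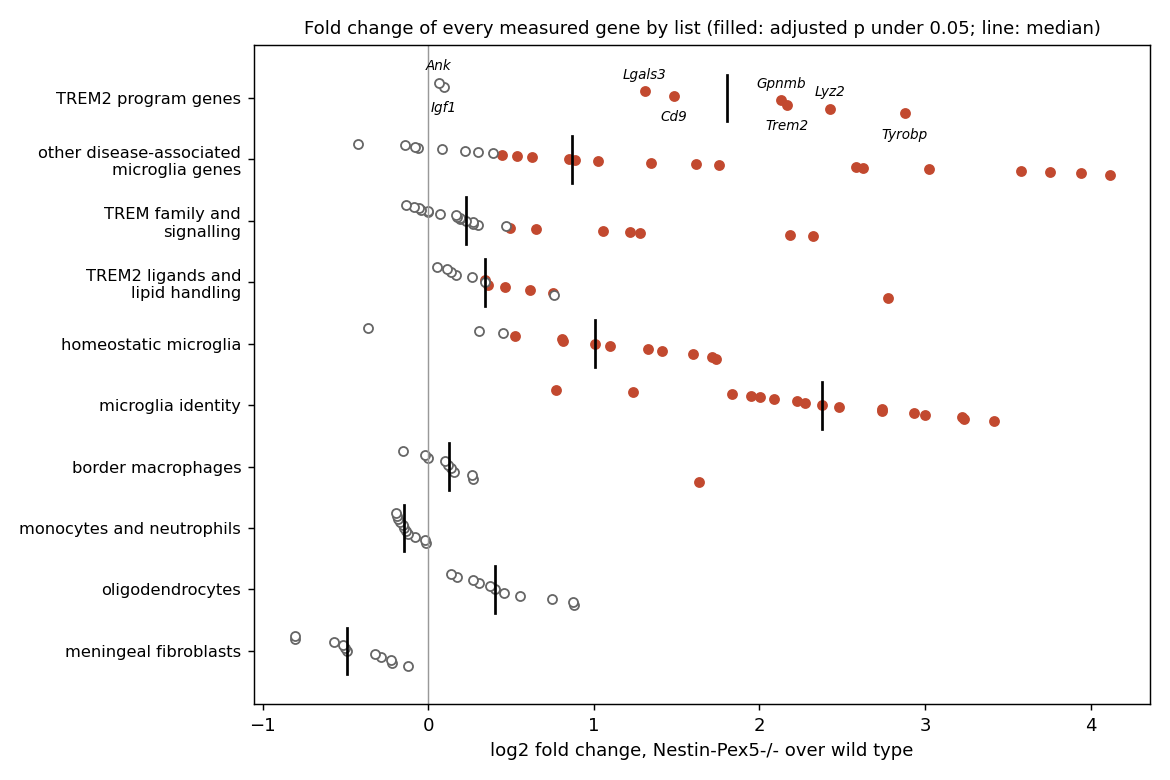
Log2 fold change, *Nestin-Pex5*-/- against wild type, of every measured gene of 10 lists, 1 point per gene, filled where the adjusted p is under 0.05, and a vertical bar at each list's median. The TREM2 program genes have a median of 1.81, the further genes of the state 0.87, the homeostatic microglia genes 1.01 and the microglia identity genes 2.38.

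Genes of resting microglia rose as well. Of 13 measured homeostatic genes 10 rose and none fell (1 was lower at an unadjusted p under 0.05), with a median log2 fold change of 1.01. The largest were *Olfml3* (3.34-fold), the fractalkine receptor *Cx3cr1* (3.28-fold), *Fcrls* (3.02-fold) and the growth factor receptor *Csf1r* (2.66-fold), whereas *P2ry12*, the ADP receptor of resting microglia, was at 1.37-fold (adjusted p = 0.0554). The mean of the 13 genes was 8.06 ± 0.068 in wild type and 9.02 ± 0.14 in *Nestin-Pex5*-/- arrays (SD, n = 4 each), higher by 0.96 on the log2 scale.

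Each member was therefore compared again after subtracting, in each array, the mean of the homeostatic genes. By this measure *Tyrobp* rose 3.79-fold, *Lyz2* 2.77-fold, *Trem2* 2.31-fold, *Gpnmb* 2.26-fold and *Cd9* 1.44-fold (adjusted p = 1.3e-10, 4.7e-08, 4.7e-08, 3.9e-07 and 2.2e-04 from limma), each without overlap between the genotypes. *Lgals3* overlapped and did not pass (1.28-fold, adjusted p = 0.0602), but passed without wild type replicate 2 or 4 (0.0118 and 0.0265) or without *Nestin-Pex5*-/- replicate 8 or 10 (0.0403 and 0.0088). Its log2 difference of 0.35 dropped to 0.22 without wild type replicate 3 and to 0.19 without *Nestin-Pex5*-/- replicate 7 (adjusted p = 0.196 and 0.327). *Igf1* and *Ank* fell relative to the homeostatic genes, to 0.549-fold and 0.539-fold. The median of the 8 members was 0.85 on the log2 scale. Of the 24 further genes of the disease-associated state 10 rose and 11 fell by this measure, with a median of -0.09, and of the 23 genes of the TREM family and signalling 4 rose and 18 fell, with a median of -0.73. Of the 17 microglia identity genes 16 rose and none fell, with a median of 1.42. A rise over the homeostatic genes was thus not particular to the members. The homeostatic genes themselves varied around their mean, where 5 of the 13 rose and 4 fell. Of all genes 0.896% rose and 97.8% fell by this measure, because the genes subtracted had risen. The adjustment over all genes therefore hardly changes any but very small p-values, and falls relative to the reference say little. Read from the mean of its probe sets, *Trem2* was higher by only 0.10 and *Gpnmb* by 0.25 and neither passed (adjusted p = 0.354 and 0.0656). The dim probe set of *Trem2* was flat and that of *Gpnmb* was at 1.20-fold.

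The outcome depended on which microglia genes served as the reference. Against the 17 identity genes, whose mean was higher by 2.38, *Tyrobp* alone of the 8 rose (1.41-fold, adjusted p = 1.6e-04 from limma), where 0.126% of all genes rose and 99.7% fell. *Lyz2*, *Trem2* and *Gpnmb* were at 1.03, 0.859 and 0.840 times the wild type level and did not pass (adjusted p = 0.776, 0.0589 and 0.126), although the arrays of *Trem2* did not overlap. *Cd9*, *Lgals3*, *Igf1* and *Ank* fell, to 0.535-fold, 0.474-fold, 0.204-fold and 0.200-fold. Neither reference counts cells. Homeostatic genes are known to recede in the disease-associated state, which would raise the members relative to them. Some identity genes are known to rise on activation, which would lower the members. Whether either took place here was not tested, and 10 of the 13 homeostatic genes rose in this tissue. In these data the identity genes that rose most were *Ptprc* (10.7-fold), *C1qb* (9.40-fold), *C1qc* (9.34-fold) and *Adgre1* (7.99-fold).

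**Figure D5:**
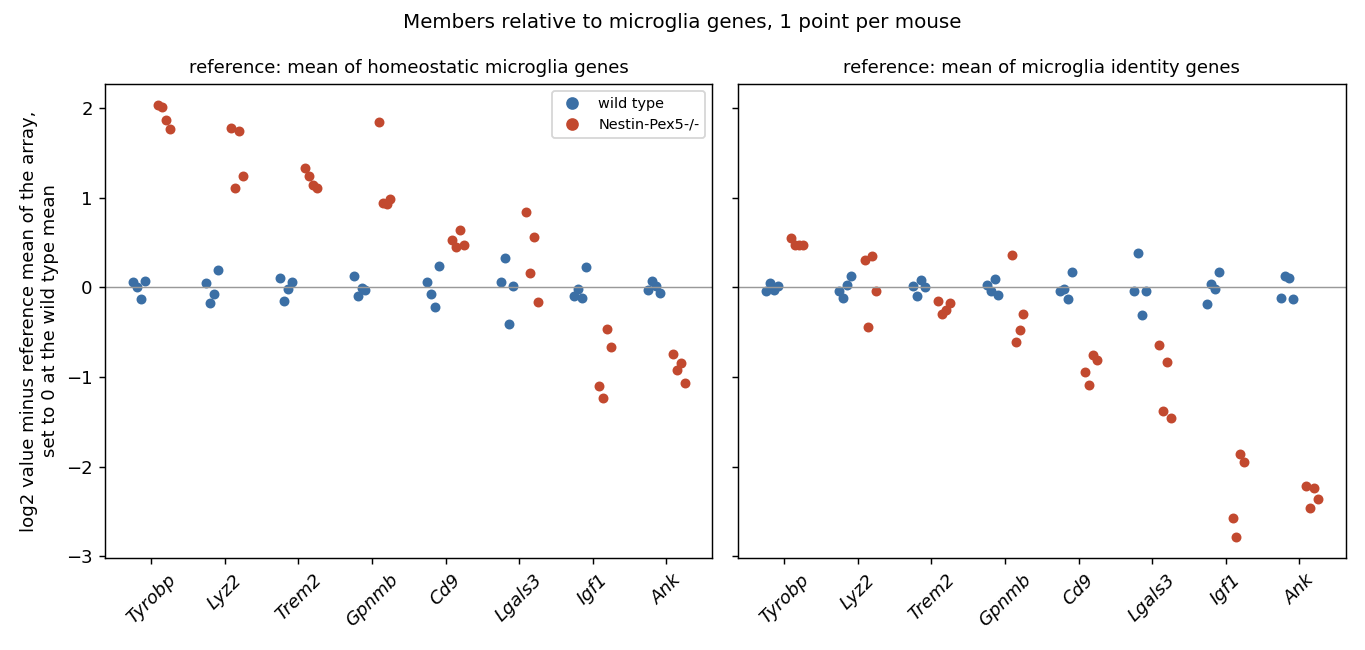
Log2 value of each member minus the mean of the homeostatic microglia genes (left) or of the microglia identity genes (right) in the same array, set to 0 at the wild type mean, 1 point per mouse. To the left *Tyrobp*, *Lyz2*, *Trem2*, *Gpnmb* and *Cd9* lie above the wild type arrays without overlap, and to the right only *Tyrobp* does.

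The genes whose arrays were most like those of *Trem2* and *Gpnmb* were sought among all genes as those with the smallest root mean square difference over the 8 arrays, each gene taken relative to its wild type mean. For *Trem2* they were the Fc receptor *Fcgr3* (0.0735 on the log2 scale), the lysosomal membrane protein *Laptm5* (0.0905), the microglia marker *Aif1* (0.103), *Pik3ap1* (0.128) and the toll-like receptor *Tlr2* (0.132). For *Gpnmb* they were the integrin activator *Fermt3* (0.215), the NADPH oxidase subunit *Cybb* (0.227), *Trem2* itself (0.232), *Fcgr3* (0.238) and *Tlr2* (0.245). No gene came as near to *Gpnmb* as the nearest did to *Trem2*. This measure is small wherever the fold change is alike, so it mainly lists genes that rose by about the same factor.

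The members differed in which *Nestin-Pex5*-/- mouse was highest. Replicate 8 was highest in *Trem2* and *Tyrobp* and also held the highest mean of the microglia identity genes, replicate 7 was highest in *Gpnmb* and *Lgals3*, and replicate 9 in *Lyz2*, *Cd9*, *Igf1* and *Ank*. Replicate 8 was at the same time the lowest in *Lyz2*, and replicate 7 the lowest in *Trem2*. With 4 mice these orders are a description.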

How the data were processed

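Total RNA from the hypothalamus of 8 mice, 4 per genotype, was labelled with biotin and hybridised to 1 Affymetrix expression array each. The authors deposited log2 values made with RMA for 45101 probe sets. The software version and any filter are not given in the sources used here. Signal over background of a probe set was not used here, so precision rests on the number of arrays. The labels number the replicates of each genotype. All 8 columns were used.

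Probe sets were named by the platform's annotation, which pairs 34958 with 1 gene, 932 with several and 9211 with none, and symbols were updated by gene identifier for 34754 (RefSeq, GRCm38.p6). Genes were read from the probe set with the highest mean, without a filter on level. Tests were two-sided and used lmFit and eBayes of limma 3.58.1 under R 4.3.3, tested on simulated data first. The difference relative to microglia genes used the same fit after subtracting the list mean of each array. Single differences were compared by an exact permutation test over arrays. Figures used matplotlib 3.10.9 in Python 3.11.15.

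The members and lists were chosen with earlier results of these data known, and no set test was run. Besides the members, up to 4 genes of each list that passed with the largest absolute change are named, or 2 with the highest level where none passed, with the 5 nearest profiles of *Trem2* and *Gpnmb*. Other genes were named after their values were seen. Alternatives were a filter at the median level, the mean of probe sets, leaving out _s_at and _x_at probe sets, scaling to *Actb* or to 8 reference genes, renewed quantile normalization, trend and robust settings, array weights, a threshold of 0.01 and leaving out each array. Chosen after seeing the data was the comparison of *Nestin-Pex5*-/- replicates 7 and 8, or 9 and 10, alone with wild type.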

Additional observations from a re-analysis of the deposited data

Results flagged for a closer look

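In all, 136 groups of 4 arrays were examined, for 61 genes and for the further probe sets shown above. Not every gene named above was among the 61. An array far from the other 3 was held by 8 groups. Chance alone gives about 1 group in 20, so a share near that of these 8 is expected without any real outlier. *Igf1* was at 8.61 in wild type replicate 4 against 8.20 to 8.23 in the others. The same array was high for *Ms4a6d*, at 4.86 against 4.56 to 4.58, and for *Aqp4*, at 11.69 against 11.14 to 11.17. In wild type replicate 3, *Pmch* was low at 12.22 against 12.75 to 12.83, and *Serpina3n*, which lies near the profile of *Lyz2*, was low at 9.07 against 9.30 to 9.33. *C1qb* was low in wild type replicate 2, at 8.37 against 8.72 to 8.74. In *Nestin-Pex5*-/- replicate 8, *Pik3ap1* was high at 8.98 against 8.52 to 8.54 and *Cd52* at 10.98 against 10.31 to 10.39. Among the 8 members only *Igf1* had such an array.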

How the results depend on the processing

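The 6 rises of members were found under every alternative run but one, the removal of _s_at and _x_at probe sets, which leaves *Trem2* on its dim probe set at -0.083 (log2; relative to homeostatic genes -1.04) and 5 members higher. Leaving out any 1 array kept 6. *Igf1* and *Ank* passed under none. *Igf1* was at -0.035 and *Ank* at -0.063 after scaling to *Actb*, which moved the median of all genes to -0.161. *Igf1* ranged from -0.041 to 0.235 without single arrays (-0.041 and -0.025 without *Nestin-Pex5*-/- replicate 9 and 10) and was at -0.283 with replicates 7 and 8 alone. Against the identity genes 1 member rose and 4 fell, in place of 5 and 2, and *Trem2*, *Gpnmb*, *Lgals3* and *Cd9* turned to -0.220, -0.252, -1.08 and -0.902. Without single arrays 5 to 6 members rose and 2 fell against the homeostatic genes.

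Of all genes 724 rose and 144 fell (543 to 1080 and 46 to 331 without single arrays; the fewest rises without *Nestin-Pex5*-/- replicate 9 and falls without replicate 10, the most of both without wild type replicate 4; *Nestin-Pex5*-/- replicate 8 left out gave 60 falls, replicate 9 gave 50, and each of wild type replicates 1 and 2 gave 68). Array weights gave 1351 and 699, the threshold of 0.01 gave 467 and 20, *Nestin-Pex5*-/- replicates 7 and 8 alone 381 and 36, and scaling to *Actb* 540 and 1088. The TREM family and signalling list had 11 higher with array weights and 7 to 8 without single arrays. The causes were not tested. No paired analysis was run, because the labels do not say whether any mice of the 2 genotypes were paired.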

Other observations

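Other cell types of the tissue are given here as values. Of 10 astrocyte genes 3 rose and none fell (before adjustment 4 were higher at p under 0.05 and none lower), namely the intermediate filament genes *Gfap* (6.76-fold) and *Vim* (2.45-fold) and the water channel *Aqp4* (2.15-fold). Of 7 genes of oligodendrocyte precursors *Gpr17*, a receptor of cells about to myelinate, rose 1.92-fold (adjusted p = 0.0219 from limma). None of 11 genes of hypothalamic neurons passed (2 were lower and none higher at p under 0.05 before adjustment). The median log2 fold change of the 11 was -0.295, with *Oxt* lowest at -0.417 and *Avp* highest at 0.0037. *Pmch* was at 0.911-fold and *Avp* at 11.52 on the log2 scale in both genotypes. The meningeal genes *Igf2* and *Dcn* stood at 0.712 and 0.706 times their wild type level, neither passing (adjusted p = 0.497 and 0.119).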
